A study of Rattus norvegicus with 6 samples.

Results

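*Adamts1*, *Adamts4*, *Adamts5*, *Adamts9*, *Mmp2*, *Mmp14*, *Mmp19*, *Timp1*, *Timp2* and *Timp3* encode secreted or membrane-bound metalloproteases of the extracellular matrix and their tissue inhibitors. These 10 genes were chosen by name, as a functional group, with earlier results on infarcted against other tissue already known. 9 of them were found by symbol among the 30560 genes of the count matrices, and *Timp2* was not analysed here. Single-nucleus RNA-seq was performed 48 h after a Sham operation or MCAO, in which the right middle cerebral artery was permanently occluded, in wild type male rats 12 weeks old. Nuclei of several rats were pooled into 1 library per hemisphere and group. The left and right hemispheres of 4 Sham rats gave Sham L and Sham R, 3 rats with moderate infarction gave mMCAO contra (left) and mMCAO ipsi (right, infarcted), and 4 rats with severe infarction gave sMCAO contra and sMCAO ipsi. These 6 libraries were taken as Sham, MCAO contra and MCAO ipsi groups of 2 each. Within Sham both libraries come from 1 set of rats, and within the other groups they differ in severity, so p-values measure the spread between libraries rather than between animals of one condition.

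Adamts proteases are secreted zinc enzymes, of which Adamts1, Adamts4, Adamts5 and Adamts9 cleave the lectican proteoglycans that hyaluronan anchors around neurons and along vessels. Mmp14 sits in the plasma membrane and activates the secreted gelatinase Mmp2, while Mmp19 acts on basement membrane proteins. Timps bind the active site of Mmps, and Timp3, which is held in the matrix, also inhibits Adamts4 and Adamts5. In brain, these enzymes are known for turnover of the vascular basement membrane, opening of the blood-brain barrier and remodelling of perineuronal matrix and glial scar.

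The promoters of 4 genes on which the results turn are shown, each as the 250 bases before the gene's start in RefSeq's GRCr8 annotation. The promoter set used here held such a window for 5 of the 9 genes found. Capitals mark matches, on either strand, to a TATA box (TATAAA), the CCAAT box of that spelling, a GC box (GGGCGG), an AP-1 site (TGANTCA) or a STAT site (TTCNNNGAA).
Adamts1, chr11:38427385-38427634, minus strand: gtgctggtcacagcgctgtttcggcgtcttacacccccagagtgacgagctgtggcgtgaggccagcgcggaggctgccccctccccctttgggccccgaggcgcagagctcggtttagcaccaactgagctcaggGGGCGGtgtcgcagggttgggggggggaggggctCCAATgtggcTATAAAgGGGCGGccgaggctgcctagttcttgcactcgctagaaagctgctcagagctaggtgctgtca
Adamts9, chr4:127019877-127020126, minus strand: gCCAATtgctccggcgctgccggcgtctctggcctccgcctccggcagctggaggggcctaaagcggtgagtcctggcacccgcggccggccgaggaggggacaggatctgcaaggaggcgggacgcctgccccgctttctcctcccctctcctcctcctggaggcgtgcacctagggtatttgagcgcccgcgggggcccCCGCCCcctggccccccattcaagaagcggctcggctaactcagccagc
Timp1, chrX:3771123-3771372, minus strand: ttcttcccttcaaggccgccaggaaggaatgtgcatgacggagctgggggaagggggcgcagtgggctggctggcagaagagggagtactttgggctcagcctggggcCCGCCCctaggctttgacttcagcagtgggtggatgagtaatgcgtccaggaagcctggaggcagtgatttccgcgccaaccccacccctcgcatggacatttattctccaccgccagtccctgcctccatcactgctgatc
Timp3, chr7:19459559-19459808, minus strand: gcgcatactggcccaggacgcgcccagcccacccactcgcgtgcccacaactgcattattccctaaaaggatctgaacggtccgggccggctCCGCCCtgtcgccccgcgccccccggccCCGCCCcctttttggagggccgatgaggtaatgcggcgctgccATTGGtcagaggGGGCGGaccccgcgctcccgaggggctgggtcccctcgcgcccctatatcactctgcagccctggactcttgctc
*Adamts1* was the only one of the 5 windows to hold a TATA box, 70 to 65 bases before the start, a feature of 12.9% of 33469 rat promoters. It lay next to a CCAAT box and between the 2 GC boxes of that window. *Timp3* held a CCAAT box and 3 GC boxes, *Adamts9* 1 of each, and *Timp1* 1 GC box. CCAAT boxes were found in 34.0% and GC boxes in 30.5% of all promoters. The *Adamts4* window held a STAT site, as did 7.67% of promoters, and AP-1 sites (6.34% of promoters) were found in none of the 5. These matches are descriptions of letters and were not tested as sites.

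The 6 libraries held 33012945 to 52513380 UMIs (unique transcript counts), with median depths of 2059 to 3360 UMIs per nucleus, and pairs of libraries shared 1.36 to 2.16% of the barcodes of the smaller. Nuclei were assigned by marker genes to oligodendrocyte precursor cells (OPCs), oligodendrocytes, astrocytes, vascular cells (endothelial or mural), fibroblasts or myeloid cells. Nuclei rich in neuronal transcripts served as a reference for free RNA. They had to hold fewer than 2 markers of every class list, which also leaves out nuclei with much free RNA of these classes. Levels in the reference may therefore understate free RNA. The classes held 1380 and 632 nuclei in Sham L and Sham R, 2872 and 1913 in mMCAO contra and sMCAO contra, and 3171 and 4572 in mMCAO ipsi and sMCAO ipsi. Levels are given as CPM, a gene's UMIs per 1000000 UMIs of that class and library. Genes kept out of the gate followed the class names: *Sox10* stood at 126 CPM in OPCs and 125 CPM in oligodendrocytes against at most 20.6 CPM elsewhere, *Mbp* at 4625 CPM in oligodendrocytes and at most 240 CPM elsewhere, and *Slc1a2* at 5252 CPM in astrocytes and at most 163 CPM elsewhere. The Sham classes were small and shallow, with 61 and 35 OPCs, 149 and 97 astrocytes, 29 and 18 fibroblasts and 20 and 39 myeloid nuclei in Sham L and Sham R. Their neuron marker transcripts were more frequent, at 2658 and 1959 CPM in Sham astrocytes against 933 and 559 CPM in those of mMCAO ipsi and sMCAO ipsi. The part of this background in the results below was not tested. Of the OPCs, 47 of 61 in Sham L and 31 of 35 in Sham R held 2 markers, the fewest allowed. In mMCAO ipsi and sMCAO ipsi these were 139 of 194 and 97 of 198, and the part of this difference in the OPC levels was not tested.

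UMIs were summed per class and library. Each gene's levels are compared between classes and libraries but not between genes. Ratios of group sums carry exact 95% intervals, which hold counting error only, and a fold against libraries without a UMI is a lower bound computed against 3 UMIs over that group. Across all 6 libraries, genes with enough UMIs were tested per class with edgeR's quasi-likelihood test in the 5 classes with at least 20 nuclei in every library, and calls required a Benjamini-Hochberg adjusted p under 0.05 with a log2 fold change of 0.6 or more in either direction. Of 45 pairs of a gene and a class, 13 passed the filter on low counts, and they came from 5 genes (*Adamts1*, *Adamts4*, *Adamts5*, *Adamts9* and *Timp3*). *Mmp2*, *Mmp14*, *Mmp19* and *Timp1* passed it in no class, and no gene passed it in myeloid cells. Because the genes were chosen with differences of MCAO ipsi from Sham and MCAO contra in view, their values in these 2 comparisons are given as a description, and only MCAO contra against Sham is read as a test. *Adamts9* in OPCs and *Adamts1* in astrocytes and oligodendrocytes passed the filter through the MCAO ipsi libraries alone. With few UMIs in Sham and MCAO contra, these pairs could hardly be called between those groups, so the comparison is no test of them.

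**Figure D1:**
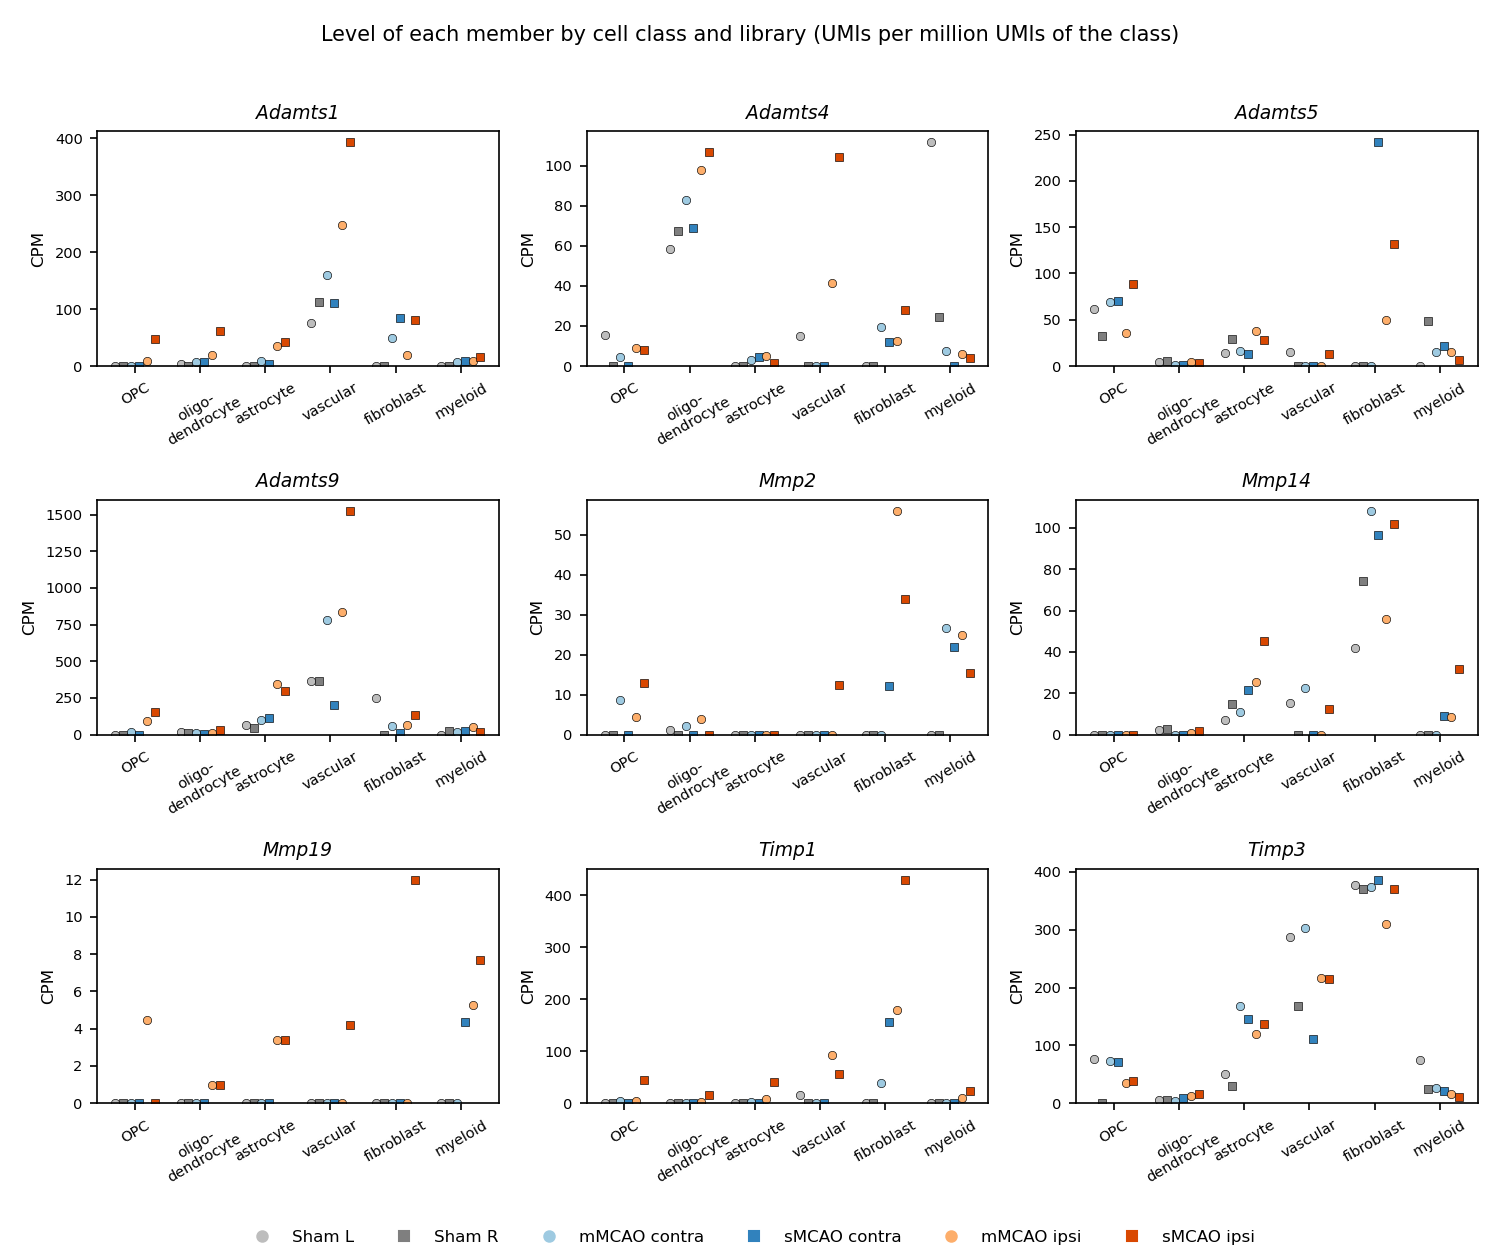
Level of each of the 9 genes (y axis, CPM on a linear scale that differs between panels) in the 6 classes (x axis), with 1 point per library coloured by hemisphere and group. *Adamts1* and *Adamts9* stood highest in vascular cells, *Adamts4* in oligodendrocytes and, in sMCAO ipsi, in vascular cells (the high myeloid point of Sham L rests on 3 UMIs), and *Timp1* and *Timp3* in fibroblasts, with *Timp1* at 0 in both Sham fibroblast libraries.

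*Adamts9*, whose product cleaves versican and aggrecan, gave 1805 of its 2107 UMIs in the 6 classes in the infarcted hemispheres. In MCAO ipsi it was highest in vascular cells (mean 1181 CPM), then in astrocytes (321 CPM) and OPCs (125 CPM), with no overlap between the libraries of vascular cells and astrocytes or of astrocytes and OPCs. OPCs and fibroblasts (98.0 CPM) overlapped. In neuron reference nuclei it ranged from 2.77 to 5.68 CPM in the infarcted hemispheres and from 3.33 to 3.82 CPM in Sham.

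In astrocytes, *Adamts9* stood at 65.5 and 44.5 CPM in Sham L and Sham R, 99.5 and 111 CPM in mMCAO contra and sMCAO contra, and 342 and 299 CPM in mMCAO ipsi and sMCAO ipsi. The 3 groups did not overlap, and MCAO ipsi lay 5.31-fold above Sham (3.02 to 10.3) and 2.99-fold above MCAO contra (2.30 to 3.94). The transcripts were spread over 96 of 405 astrocytes in mMCAO ipsi and 181 of 543 in sMCAO ipsi, with at most 14 UMIs in 1 nucleus. After thinning every nucleus to 1000 UMIs, 18.8% of MCAO ipsi astrocytes, 8.82% of MCAO contra and 10.0% of Sham astrocytes (3 of 30 nuclei) held an *Adamts9* UMI, against 0.473% of MCAO ipsi neuron reference nuclei. Without thinning the shares were 29.2%, 8.82% and 4.47%, against 1.28%. Of the Sham astrocytes, 216 were too shallow to be thinned. Median depths were 1316 and 2280 UMIs in astrocytes and 4190 and 6919 UMIs in neuron reference nuclei of mMCAO ipsi and sMCAO ipsi.

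In OPCs, *Adamts9* had no UMI in Sham L, Sham R or sMCAO contra, 17.2 CPM (4 UMIs) in mMCAO contra, and 94.0 and 156 CPM (21 and 60 UMIs) in mMCAO ipsi and sMCAO ipsi. Both infarcted libraries lay above all 4 others, by at least 4.28-fold over Sham and by 12.0-fold over MCAO contra (4.51 to 45.1). Few nuclei carried these transcripts, 9 of 194 in mMCAO ipsi and 17 of 198 in sMCAO ipsi, and 1 nucleus of sMCAO ipsi held 17 UMIs. The endothelial marker list (12 genes), which marks the cells with the highest *Adamts9*, stood at 61.3 and 64.1 CPM in Sham OPCs and at 26.9 and 15.6 CPM in those of mMCAO ipsi and sMCAO ipsi, against 11876 and 11584 CPM in vascular nuclei of these last 2 libraries. The OPC sums held 65290 and 31223 UMIs in Sham L and Sham R and 223461 and 384796 UMIs in mMCAO ipsi and sMCAO ipsi. The list levels in OPCs thus rest on a few UMIs each. The part of endothelial RNA in the OPC levels was not tested. Mitochondrial transcripts made up 0.0480 to 0.0720% of OPC UMIs in Sham and MCAO contra, 0.150% in mMCAO ipsi and more than that in sMCAO ipsi, and their part in the OPC levels was not tested.

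The OPC level of *Adamts9* was higher in nuclei with cell cycle transcripts, defined by at least 2 UMIs of 10 cell cycle genes. In sMCAO ipsi, the 63 OPCs with such transcripts stood at 297 CPM and the 118 OPCs without any at 69.6 CPM, a ratio of 4.27 (2.31 to 8.42). In mMCAO ipsi the levels were 157 CPM in 51 nuclei and 60.7 CPM in 130 nuclei, a ratio of 2.58 whose interval (0.971 to 7.29) includes 1. Much of both values rests on 1 nucleus each. Without the sMCAO ipsi nucleus that held 17 UMIs the first ratio was 2.77 (1.42 to 5.67), and without a mMCAO ipsi nucleus that held 6 UMIs the second was 1.32 (0.376 to 4.32). Astrocytes gave smaller ratios, 1.66 (1.22 to 2.25) in mMCAO ipsi and 1.504 (1.23 to 1.84) in sMCAO ipsi. In all 4 pairs the nuclei with cell cycle transcripts stood higher. Deeper nuclei reach 2 cell cycle UMIs more easily, and these values have no replicate test. The cell cycle list itself stood at 414 and 288 CPM in Sham OPCs and at 1490 and 1505 CPM in those of mMCAO ipsi and sMCAO ipsi.

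**Figure D2:**
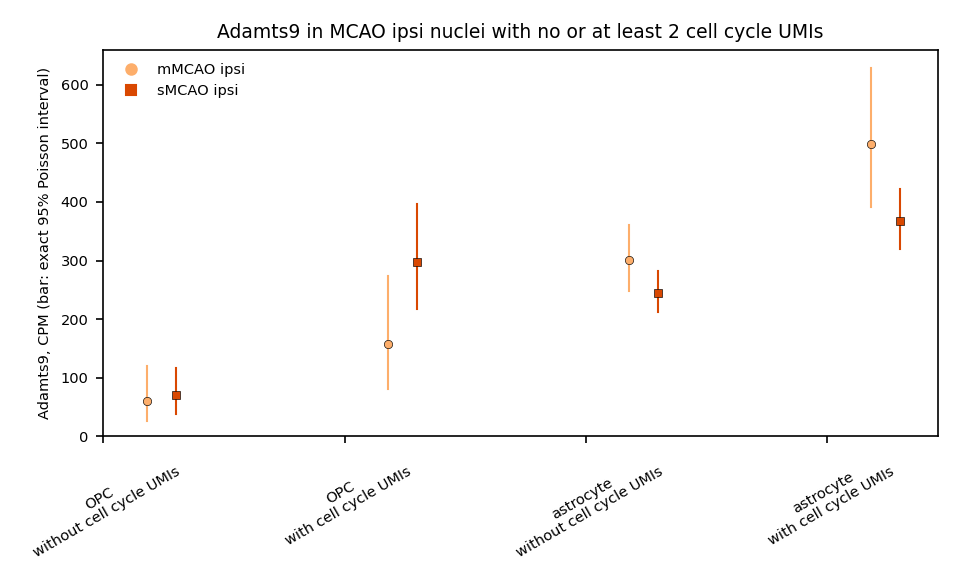
*Adamts9* level (y axis, CPM) in OPCs and astrocytes of the 2 infarcted hemispheres, split into nuclei with no cell cycle UMI and nuclei with at least 2 (x axis), with exact 95% Poisson intervals as bars. OPCs without cell cycle UMIs stood at 60.7 and 69.6 CPM, below the 157 and 297 CPM of OPCs with them, which are 79.8 and 192 CPM without the nucleus richest in *Adamts9* in each library.

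In vascular cells, *Adamts9* stood at 364 and 365 CPM in Sham L and Sham R, 781 and 202 CPM in mMCAO contra and sMCAO contra, and 837 and 1524 CPM in mMCAO ipsi and sMCAO ipsi. Both infarcted libraries were above all others, and the MCAO contra libraries lay on either side of Sham. The ratio of MCAO ipsi to Sham was 3.87 (2.78 to 5.53). 185 of 290 vascular nuclei of sMCAO ipsi and 32 of 86 of mMCAO ipsi held a UMI. The ratio of endothelial to mural level was 0.332 (0.185 to 0.639) in mMCAO ipsi and 1.44 (1.09 to 1.93) in sMCAO ipsi. The mural level rests on 9 nuclei (14 UMIs) in mMCAO ipsi. In sMCAO ipsi, 1 of 35 mural nuclei held 18 of the 55 mural UMIs. No order of endothelial and mural nuclei is read from these ratios.

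The other classes held less *Adamts9*. Oligodendrocytes stood at 20.6 and 14.0 CPM in Sham L and Sham R, 8.67 and 7.28 CPM in mMCAO contra and sMCAO contra, and 13.6 and 30.8 CPM in mMCAO ipsi and sMCAO ipsi, so that Sham and MCAO ipsi overlapped. Fibroblasts ranged from 0 CPM in Sham R to 252 CPM (6 UMIs) in Sham L, with 62.1 and 134 CPM in mMCAO ipsi and sMCAO ipsi. In myeloid cells of the infarcted hemispheres the order of severity was turned, with 49.8 CPM in mMCAO ipsi and 20.2 CPM in sMCAO ipsi, a ratio of 0.406 (0.275 to 0.595). Nuclei with microglia markers went from 66.0 to 10.9 CPM, a ratio of 0.166 (0.0713 to 0.342), and those with macrophage markers stood at 34.0 and 32.6 CPM, a ratio of 0.958 (0.472 to 2.15), while their number was 262 in mMCAO ipsi and 981 in sMCAO ipsi. Of the UMIs in macrophage-marker nuclei, 6 of 10 in mMCAO ipsi and 15 of 41 in sMCAO ipsi came from 1 nucleus each.

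*Adamts1*, which cleaves aggrecan and versican and binds vascular endothelial growth factor, was highest in vascular cells (mean 320 CPM in MCAO ipsi), and no other class overlapped with them. Vascular levels were 75.8 and 112 CPM in Sham L and Sham R, 159 and 110 CPM in mMCAO contra and sMCAO contra, and 248 and 392 CPM in mMCAO ipsi and sMCAO ipsi. The infarcted libraries were above all 4 others, 4.16-fold over Sham (2.15 to 9.22) and 2.54-fold over MCAO contra (1.70 to 3.94). Sham vascular cells gave 9 UMIs in all.

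In oligodendrocytes, *Adamts1* stood at 4.33 and 0 CPM (4 and 0 UMIs) in Sham L and Sham R, 6.50 and 7.28 CPM in mMCAO contra and sMCAO contra, and 19.4 and 61.5 CPM (20 and 124 UMIs) in mMCAO ipsi and sMCAO ipsi. The 3 groups did not overlap, and MCAO ipsi lay 15.1-fold above Sham (5.78 to 56.3) and 6.93-fold above MCAO contra (4.37 to 11.5). The transcripts came from 92 of 1445 nuclei in sMCAO ipsi, with at most 6 UMIs in 1 nucleus.

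In astrocytes, *Adamts1* had no UMI in either Sham library, 8.29 and 4.29 CPM (3 and 1 UMIs) in mMCAO contra and sMCAO contra, and 35.9 and 41.8 CPM (21 and 62 UMIs) in mMCAO ipsi and sMCAO ipsi. The infarcted libraries were close to each other and above all others, at least 2.74-fold over Sham and 5.97-fold over MCAO contra (2.25 to 22.4). OPCs held *Adamts1* UMIs in the infarcted hemispheres alone, at 8.95 CPM (2 UMIs) in mMCAO ipsi and 46.8 CPM (18 UMIs) in sMCAO ipsi. In OPCs 3 UMIs would equal 31.1 CPM in Sham and 8.32 CPM in MCAO contra. The 2 UMIs of mMCAO ipsi can therefore not be placed above either group. In fibroblasts the infarcted and opposite hemispheres of MCAO rats overlapped, with 49.2 and 84.5 CPM in mMCAO contra and sMCAO contra and 18.6 and 80.0 CPM in mMCAO ipsi and sMCAO ipsi. Neuron reference nuclei stood at 0.137 and 0.221 CPM in Sham L and Sham R and at 1.02 and 0.812 CPM in mMCAO ipsi and sMCAO ipsi.

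Mitochondrial transcripts, a sign of cytoplasm carried with a nucleus, are given beside *Adamts1* for oligodendrocytes, astrocytes and vascular cells, the class with the highest level. In oligodendrocytes they made up 0.0869 and 0.0743% of UMIs in Sham L and Sham R, 0.106 and 0.121% in mMCAO contra and sMCAO contra, and 0.139 and 0.352% in mMCAO ipsi and sMCAO ipsi. In astrocytes they ranged from 0.0459 to 0.135% in Sham and MCAO contra and were 0.267 and 0.430% in mMCAO ipsi and sMCAO ipsi. In vascular cells they made up 0.791 and 1.17% in Sham L and Sham R, 1.03 and 0.847% in mMCAO contra and sMCAO contra, and 1.07 and 1.20% in mMCAO ipsi and sMCAO ipsi, so that Sham and MCAO ipsi overlapped. Within each group, the vascular library with more mitochondrial transcripts also had more *Adamts1*. The part of mitochondrial transcripts in the *Adamts1* levels was not tested.

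*Adamts4*, an aggrecanase of the oligodendrocyte lineage that cleaves brevican, gave 317 of its 415 UMIs of the infarcted hemispheres in oligodendrocytes. There it stood at 58.4 and 67.3 CPM in Sham L and Sham R, 82.9 and 68.7 CPM in mMCAO contra and sMCAO contra, and 97.8 and 107 CPM in mMCAO ipsi and sMCAO ipsi. The groups did not overlap, and MCAO ipsi lay 1.71-fold above Sham (1.33 to 2.22) and 1.35-fold above MCAO contra (1.13 to 1.60). Transcripts were spread thinly, over 95 of 1161 nuclei in mMCAO ipsi and 189 of 1445 in sMCAO ipsi, with at most 4 UMIs in 1 nucleus.

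Vascular cells held *Adamts4* mainly in the infarcted hemispheres, with 1 UMI in Sham L, none in Sham R or either MCAO contra library, and 41.3 and 104 CPM (4 and 50 UMIs) in mMCAO ipsi and sMCAO ipsi. This was at least 5.82-fold over MCAO contra. In sMCAO ipsi the mural nuclei stood at 338 CPM (17 UMIs in 35 nuclei) and the endothelial nuclei at 77.0 CPM (33 UMIs), a ratio of endothelial to mural level of 0.227 (0.123 to 0.435). OPCs, the precursors of the class with most *Adamts4*, stood at 8.95 and 7.80 CPM in mMCAO ipsi and sMCAO ipsi.

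*Adamts5*, another aggrecanase, was found mainly in OPCs, fibroblasts and astrocytes. In OPCs it stood at 61.3 and 32.0 CPM in Sham L and Sham R, 68.7 and 70.5 CPM in mMCAO contra and sMCAO contra, and 35.8 and 88.4 CPM in mMCAO ipsi and sMCAO ipsi. MCAO ipsi overlapped with both other groups, and both MCAO contra libraries were above both Sham libraries. The 2 Sham libraries gave 5 OPC UMIs. Fibroblasts had no *Adamts5* UMI in Sham L, Sham R or mMCAO contra, and stood at 242, 49.7 and 132 CPM (20, 8 and 66 UMIs) in sMCAO contra, mMCAO ipsi and sMCAO ipsi. Both severe libraries were thus above both moderate ones. In sMCAO ipsi, 30 of 242 fibroblasts carried it, with at most 7 UMIs in 1 nucleus.

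Of the Mmps, *Mmp14* was highest in fibroblasts in MCAO ipsi (mean 78.9 CPM), without overlap with astrocytes (35.4 CPM). Fibroblasts stood at 42.0 and 74.2 CPM (1 UMI each) in Sham L and Sham R, 108 and 96.6 CPM in mMCAO contra and sMCAO contra, and 55.9 and 102 CPM in mMCAO ipsi and sMCAO ipsi. MCAO ipsi overlapped with both other groups, and both MCAO contra libraries were above Sham L and Sham R. In astrocytes *Mmp14* stood at 7.28 and 14.8 CPM (1 UMI each) in Sham L and Sham R, 11.1 and 21.4 CPM in mMCAO contra and sMCAO contra, and 25.6 and 45.2 CPM in mMCAO ipsi and sMCAO ipsi. Both infarcted astrocyte libraries were above all others, 2.62-fold over MCAO contra (1.32 to 5.94). OPCs had no *Mmp14* UMI in any library, which allows up to 4.93 CPM over the MCAO ipsi group.

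Myeloid *Mmp14* differed between nuclei with macrophage markers and those with microglia markers. It had no UMI in mMCAO contra or in Sham, where 3 UMIs would equal 44.1 CPM. It stood at 8.76 CPM (2 UMIs) in sMCAO contra, 8.30 CPM (11 UMIs) in mMCAO ipsi and 31.5 CPM (78 UMIs) in sMCAO ipsi. Sham can therefore not be placed below these libraries. Myeloid nuclei with macrophage markers stood at 30.6 and 56.5 CPM in mMCAO ipsi and sMCAO ipsi, and those with microglia markers at 2.87 and 3.64 CPM. The ratio of microglia-marker to macrophage-marker nuclei was 0.0936 (0.00984 to 0.452) and 0.0645 (0.0130 to 0.196), the same direction in both hemispheres. *Mmp2*, the gelatinase that Mmp14 activates, did not share this split, with ratios of 1.20 (0.489 to 3.37) in mMCAO ipsi and 2.46 (1.18 to 5.36) in sMCAO ipsi.

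*Mmp2* was sparse, with 133 UMIs in the 6 classes. Fibroblasts stood at 55.9 and 34.0 CPM (9 and 17 UMIs) in mMCAO ipsi and sMCAO ipsi, against 1 UMI in sMCAO contra and none in the other 3 libraries. In Sham fibroblasts 3 UMIs would equal 80.5 CPM, so Sham cannot be placed below the infarcted libraries. Myeloid cells held 26.7 and 21.9 CPM in mMCAO contra and sMCAO contra and 24.9 and 15.4 CPM in mMCAO ipsi and sMCAO ipsi, and the 2 groups overlapped. Astrocytes had no *Mmp2* UMI in any library. *Mmp19* gave 46 UMIs in all, 26 of them in myeloid cells of the infarcted hemispheres, and none in a Sham library of any class. In Sham myeloid cells 3 UMIs would equal 44.1 CPM, while *Mmp19* did not pass 7.68 CPM in those of MCAO ipsi.

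*Timp1*, a soluble inhibitor of most Mmps that is known as a gene induced by cytokines, was nearly absent from Sham, with 1 UMI in the 2 Sham libraries over the 6 classes, in vascular cells of Sham L. In fibroblasts it stood at 0 CPM in Sham L and Sham R, 39.3 and 157 CPM (4 and 13 UMIs) in mMCAO contra and sMCAO contra, and 180 and 430 CPM (29 and 215 UMIs) in mMCAO ipsi and sMCAO ipsi. Both infarcted libraries were above all 4 others, at least 4.59-fold over Sham and 4.00-fold over MCAO contra (2.45 to 6.99). In sMCAO ipsi, 60 of 242 fibroblasts carried *Timp1*, with at most 24 UMIs in 1 nucleus. The Sham fibroblasts were 47 nuclei, and their 0 UMIs allow up to 80.5 CPM.

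Glia held less *Timp1*, and most of it in sMCAO ipsi. Oligodendrocytes stood at 0 CPM in Sham L, Sham R and mMCAO contra, 0.809 CPM (1 UMI) in sMCAO contra, and 2.90 and 16.4 CPM (3 and 33 UMIs) in mMCAO ipsi and sMCAO ipsi. Astrocytes stood at 0 CPM in both Sham libraries and sMCAO contra, 2.76 CPM (1 UMI) in mMCAO contra, and 8.55 and 41.1 CPM (5 and 61 UMIs) in mMCAO ipsi and sMCAO ipsi. In both classes the infarcted libraries were above all others. In Sham astrocytes 3 UMIs would equal 14.7 CPM, above the level of mMCAO ipsi, and mMCAO ipsi oligodendrocytes rest on 3 UMIs. Sham can therefore not be placed below mMCAO ipsi in these classes. OPCs of sMCAO ipsi stood at 44.2 CPM, but 13 of these 17 UMIs came from 1 of 198 nuclei.

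In vascular cells *Timp1* stood at 93.0 and 56.4 CPM (9 and 27 UMIs) in mMCAO ipsi and sMCAO ipsi, with 8 of the 9 UMIs of mMCAO ipsi in 1 nucleus. Myeloid cells had none in Sham or MCAO contra, though 3 UMIs would equal 44.1 CPM in Sham. They stood at 9.81 and 23.4 CPM (13 and 58 UMIs) in mMCAO ipsi and sMCAO ipsi, both below that Sham floor. Beside these values, *Timp1* in neuron reference nuclei was 0.411 and 0.221 CPM in Sham L and Sham R, 0.423 and 0.574 CPM in mMCAO contra and sMCAO contra, and 1.17 and 3.83 CPM in mMCAO ipsi and sMCAO ipsi. The fibroblast marker list (15 genes), which marks the cells with the highest *Timp1*, stood at 15.3 to 94.0 CPM in OPCs of the other libraries and at 125 CPM in those of sMCAO ipsi, at 41.5 to 138 CPM and at 206 CPM in astrocytes, and at 137 to 185 CPM and at 115 CPM in oligodendrocytes. It stood at 11614 CPM in fibroblasts of sMCAO ipsi. The part of free RNA in the glial *Timp1* was not tested. *Timp1* lies within *Syn1*, a neuronal gene, and *Syn1* stood at 97.6 to 131 CPM in neuron reference nuclei, where *Timp1* did not pass 3.83 CPM.

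**Figure D3:**
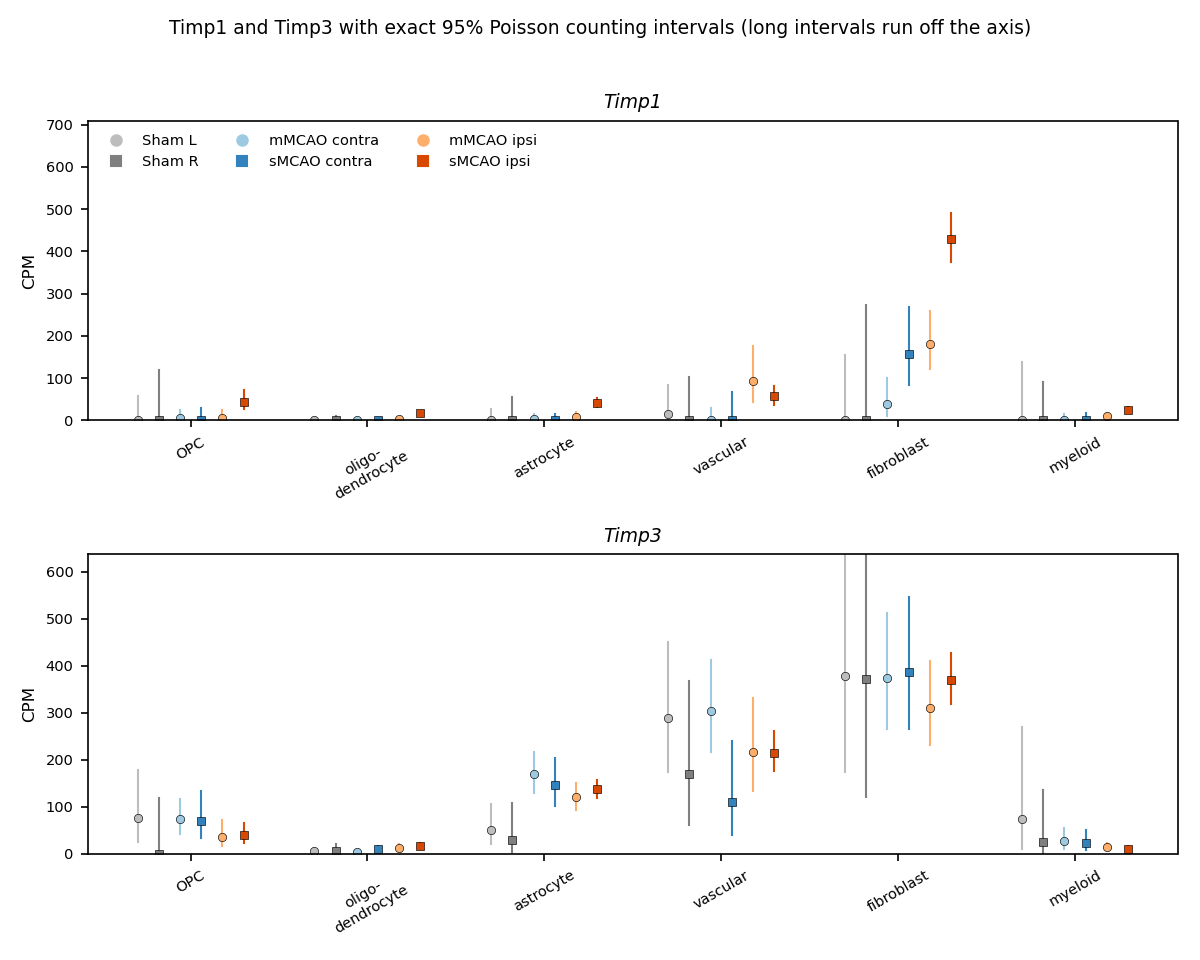
*Timp1* (top) and *Timp3* (bottom) levels (y axis, CPM) by class (x axis) and library (colour), with exact 95% Poisson counting intervals as bars, some of which run past the top of the axis. *Timp1* fibroblasts reached 430 CPM in sMCAO ipsi from 0 in Sham, while *Timp3* fibroblasts lay between 311 and 386 CPM in all 6 libraries.

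*Timp3*, the matrix-bound inhibitor of Adamts4, Adamts5 and Mmps, was detected in every class, and only 1 of the 36 class sums, that of OPCs in Sham R, had no UMI. Fibroblasts stood at 378 and 371 CPM in Sham L and Sham R, 374 and 386 CPM in mMCAO contra and sMCAO contra, and 311 and 370 CPM in mMCAO ipsi and sMCAO ipsi. The ratio of MCAO ipsi to Sham was 0.947, with an interval of 0.553 to 1.76 that also allows moderate differences. In the same nuclei *Timp1* was absent from Sham and reached 430 CPM.

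Vascular *Timp3* stood at 288 and 168 CPM in Sham L and Sham R, 303 and 110 CPM in mMCAO contra and sMCAO contra, and 217 and 215 CPM in mMCAO ipsi and sMCAO ipsi, with all groups overlapping. In sMCAO ipsi all 103 vascular UMIs came from endothelial nuclei and none from the 35 mural nuclei, at least 4.02-fold higher in endothelial nuclei. OPCs stood at 76.6 and 0 CPM in Sham L and Sham R, 73.0 and 70.5 CPM in mMCAO contra and sMCAO contra, and 35.8 and 39.0 CPM in mMCAO ipsi and sMCAO ipsi, which put both infarcted libraries below both opposite hemispheres, at a ratio of 0.524 (0.286 to 0.956).

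In astrocytes *Timp3* stood at 51.0 and 29.7 CPM (7 and 2 UMIs) in Sham L and Sham R, 169 and 146 CPM in mMCAO contra and sMCAO contra, and 120 and 137 CPM in mMCAO ipsi and sMCAO ipsi. Both hemispheres of MCAO rats were above Sham, and the contralateral libraries were above the infarcted ones. MCAO ipsi lay 3.00-fold (1.56 to 6.64) and MCAO contra 3.63-fold (1.83 to 8.18) above Sham. Neuron reference nuclei of both hemispheres of MCAO rats were also above Sham, at lower levels, but there the infarcted libraries were the highest. They stood at 4.70 and 4.65 CPM in Sham L and Sham R and at 6.27 and 9.32 CPM in mMCAO contra and sMCAO contra. In mMCAO ipsi and sMCAO ipsi they stood at 10.4 and 23.0 CPM. *Timp3* lies within the neuronal gene *Syn3*.

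Fitted across all genes, MCAO ipsi against Sham met the calling rule for 5 of the 13 tested pairs, all higher in MCAO ipsi, beside 5.84% of all 29085 gene and class pairs in either direction. These were *Adamts9* in OPCs and astrocytes, *Adamts1* in oligodendrocytes and astrocytes, and *Timp3* in astrocytes, beside 1.94% of genes called higher in OPCs, 1.62% in oligodendrocytes and 8.18% in astrocytes. With the rats' severity as a replicate block, *Adamts9* in OPCs no longer met it (edgeR, adjusted p = 0.0730). The log2 fold change was 2.39 ± 0.33 (SE) for *Adamts9* and 1.51 ± 0.42 for *Timp3* in astrocytes and 3.72 ± 0.82 for *Adamts1* in oligodendrocytes. The 2 other fitted values rest on Sham libraries without a UMI and are no bound. Against MCAO contra, 3 of the 13 met the rule, beside 4.36% of all pairs. *Adamts9* in OPCs had a log2 fold change of 3.42 ± 0.61 (2.41% of OPC genes called higher), and *Adamts9* and *Adamts1* in astrocytes had 1.55 ± 0.22 and 2.45 ± 0.64 (8.5% of astrocyte genes). *Adamts9* in OPCs no longer met the rule against MCAO contra with DESeq2 (adjusted p = 0.122) or without sMCAO ipsi (edgeR, adjusted p = 0.226), nor did *Adamts1* in astrocytes with DESeq2 (adjusted p = 0.169) or without sMCAO contra (edgeR, adjusted p = 0.0769). Nothing is read from these counts, since the genes were chosen with these comparisons in view. The median log2 fold change over the 13 pairs was 1.51 against Sham and 1.23 against MCAO contra, beside 0.04 and -0.000149 over all pairs. Nothing is read from these medians either, for the same reason. *Adamts9* in OPCs and *Adamts1* in astrocytes and oligodendrocytes also passed the filter through MCAO ipsi alone. The calls against Sham of *Adamts9* in OPCs, *Adamts1* in astrocytes and oligodendrocytes and *Timp3* in astrocytes were lost with either Sham library left out. *Adamts9* in OPCs and *Adamts1* in oligodendrocytes were also lost without sMCAO ipsi. Leaving out a library changes which pairs pass the filter, so counts of calls there are not out of these 13 pairs.

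MCAO contra against Sham, the comparison of the uninfarcted hemisphere, called none of the 13 pairs with edgeR or with DESeq2, beside 0.0138% of all pairs (4 of 29085), and 3 had an unadjusted p under 0.05 in edgeR, as did 2338 (8.04%) of all pairs. The lack of a call says nothing about *Adamts9* in OPCs or *Adamts1* in astrocytes and oligodendrocytes, which had few UMIs in both groups. *Timp3* in astrocytes had a log2 fold change of 1.86 ± 0.42 (edgeR, adjusted p = 0.217), with both contralateral libraries above both Sham libraries. Left without mMCAO ipsi or without sMCAO ipsi, the edgeR fit gave it an adjusted p of 0.0235 or 0.0172. *Adamts9* had 0.85 ± 0.40 in astrocytes (edgeR, adjusted p = 0.675) and -1.19 ± 0.52 in oligodendrocytes (edgeR, adjusted p = 0.672), where both contralateral libraries were below both Sham libraries. The remaining 10 pairs had fitted values from -0.05 for *Timp3* in vascular cells to 4.78 for *Adamts1* in astrocytes.

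**Figure D4:**
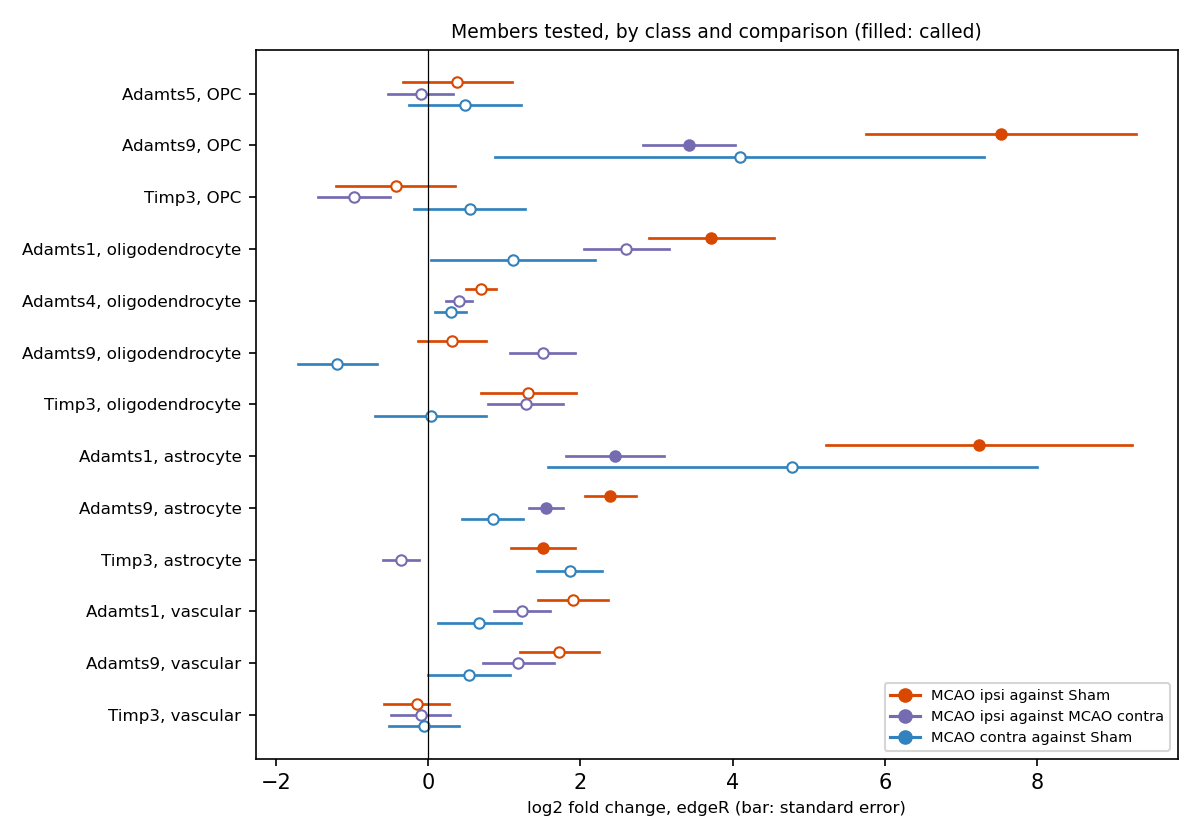
edgeR log2 fold changes (x axis, bars are standard errors) of the 13 tested pairs of a gene and a class (y axis) in the 3 comparisons, with filled circles where the pair met the calling rule. Values near 7 for *Adamts9* in OPCs and *Adamts1* in astrocytes rest on Sham libraries without a UMI, and no pair met the rule in MCAO contra against Sham.

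Severe and moderate infarction were 1 library each and were not tested. Levels in sMCAO ipsi over those in mMCAO ipsi gave a ratio above 1, with its interval, for *Timp1* in fibroblasts (2.39, 1.61 to 3.65), astrocytes (4.81, 1.95 to 15.4), oligodendrocytes (5.64, 1.77 to 28.7), OPCs (9.87, 1.55 to 413, with most UMIs in 1 nucleus) and myeloid cells (2.39, 1.29 to 4.75), but not in vascular cells (0.606, 0.277 to 1.46). *Adamts1* stood 3.18-fold higher in severe infarction in oligodendrocytes (1.97 to 5.38) and 1.58-fold higher in vascular cells (1.03 to 2.53), and its astrocyte ratio was 1.16 (0.700 to 2.01). *Adamts9* was 1.82-fold higher in vascular cells (1.45 to 2.32) and 2.27-fold higher in oligodendrocytes (1.26 to 4.39), while its astrocyte ratio was 0.876 (0.740 to 1.04). Myeloid *Mmp14* was 3.80-fold higher in severe infarction (2.01 to 7.92), in a class whose make-up differed, with 262 macrophage-marker and 498 microglia-marker nuclei in mMCAO ipsi and 981 and 501 in sMCAO ipsi. Within macrophage-marker nuclei the ratio was 1.84 (0.918 to 4.20). Every *Timp3* interval in the 6 classes included 1, as did those of *Adamts4* in oligodendrocytes (1.10, 0.861 to 1.40) and *Mmp2* in fibroblasts and myeloid cells. The severe library also had the deeper nuclei, with medians of 1151 against 715 UMIs in oligodendrocytes and 1611 against 865 UMIs in fibroblasts.

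For each gene with at least 100 UMIs, the 3 genes with the most similar pattern over the 35 sums of at least 20 nuclei were sought among 11992 genes, by Pearson's r of log2(CPM + 5). The points share libraries and differ in depth, so r is a description. *Timp1* was most like *S100a6* (r = 0.931), *Bcl3* (0.829) and *Igfbp3* (0.829). *Adamts1* was most like *Tubb6* (0.911) and the mitochondrial transcripts *Mt-co3* (0.905) and *Mt-co1* (0.897). *Adamts9* followed *Igfbp7* (0.872), *Id3* (0.821) and *Eef1a1* (0.819), and *Mmp14* followed *Mxra8* (0.892), *Fbln1* (0.882) and *Evc2* (0.878). For *Timp3* the closest were *Tead1* (0.874), *Nebl* (0.860) and *Nipal2* (0.858), and for *Adamts5* they were *Smoc1* (0.809), *Parp8* (0.808) and *Igdcc3* (0.750). *Adamts4* had *Rnf220* (0.773) and *St6galnac3* (0.761) and an unnamed gene, and *Mmp2* had *RGD1561662* (0.810), *Tmem154* (0.802) and *Cklf* (0.774). Among the proteases themselves, *Adamts1* and *Adamts9* had r = 0.721, and *Adamts4* had 0.133 with *Adamts1*.

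The rest of the system was described by a list of 69 other genes, of which 68 were found and 32 passed the filter in at least 1 class, as 90 pairs of a gene and a class. This list too was drawn up with earlier results of these data known, and the genes named from it were picked by smallest p. Their values in MCAO ipsi against Sham and against MCAO contra, with the adjusted p-values, are therefore a description. Against Sham, 10 of these pairs were called higher and 6 lower in MCAO ipsi, beside 5.84% of all pairs called. Against MCAO contra, 9 were called higher and 4 lower, beside 4.36% of all pairs. MCAO contra against Sham called none with edgeR or DESeq2, and 15 of the 90 pairs had an unadjusted p under 0.05 there in edgeR, as did 8.04% of all pairs.

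Matrix substrates gave 8 of the 16 calls against Sham (5 higher, 3 lower) and 9 of the 13 against MCAO contra (5 higher, 4 lower). Each is out of 33 tested pairs, beside 5.84% and 4.36% of all pairs. Astrocytes gave 6 and 7 of these calls. Of those, 4 were higher in each comparison, beside 8.18 and 8.5% of astrocyte genes called higher. In astrocytes, *Ncan*, the lectican neurocan that Adamts enzymes cleave, stood at 21.8 and 14.8 CPM in Sham L and Sham R, 49.8 and 60.0 CPM in mMCAO contra and sMCAO contra, and 272 and 355 CPM in mMCAO ipsi and sMCAO ipsi. It rose by a log2 fold change of 3.95 ± 0.44 against Sham (edgeR, adjusted p = 3.41e-06) and 2.49 ± 0.26 against MCAO contra (edgeR, adjusted p = 1.73e-06). *Tnc*, the glycoprotein tenascin-C, stood at 94.7 and 119 CPM in Sham L and Sham R, 180 and 154 CPM in mMCAO contra and sMCAO contra, and 429 and 969 CPM in mMCAO ipsi and sMCAO ipsi. It rose by 2.72 ± 0.39 against Sham (edgeR, adjusted p = 5.22e-05) and 2.01 ± 0.28 against MCAO contra (edgeR, adjusted p = 3.57e-05). *Fn1*, fibronectin, had no UMI in Sham astrocytes and 123 and 176 CPM in mMCAO ipsi and sMCAO ipsi, and it rose by 2.49 ± 0.42 against MCAO contra (edgeR, adjusted p = 0.000246). *Lamc1*, the laminin gamma-1 chain of basement membranes, rose by 0.996 ± 0.22 against MCAO contra (edgeR, adjusted p = 0.00246).

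The testican genes went the other way in astrocytes, and not in astrocytes alone. *Spock3*, a secreted proteoglycan known to inhibit membrane-type Mmps, stood at 328 and 386 CPM in Sham L and Sham R, 166 and 176 CPM in mMCAO contra and sMCAO contra, and 73.5 and 47.9 CPM in mMCAO ipsi and sMCAO ipsi. It fell by 2.64 ± 0.28 on the log2 scale against Sham (edgeR, adjusted p = 2.18e-06) and by 1.62 ± 0.26 against MCAO contra (edgeR, adjusted p = 0.000145). *Spock1* fell by 2.29 ± 0.34 against Sham (edgeR, adjusted p = 6.97e-05) and by 1.61 ± 0.30 against MCAO contra (edgeR, adjusted p = 0.000486). Both are neuronal transcripts as well, at 458 to 677 CPM (*Spock3*) and 386 to 585 CPM (*Spock1*) in neuron reference nuclei, and the neuron marker list fell in the same astrocyte sums as given above. The part of neuronal RNA in these falls was not tested. Other classes also fell, by the ratio of MCAO ipsi to Sham group sums. *Spock3* gave 0.167 in myeloid cells, 0.412 in vascular cells, 0.414 in fibroblasts, 0.423 in OPCs and 0.74 in oligodendrocytes. *Spock1* gave 0.179 in OPCs, 0.183 in myeloid cells and 0.353 in vascular cells, but 1.08 in oligodendrocytes. Its fibroblast interval was wide (0.131 to 2.25). Differences between classes in these falls were not tested. In OPCs, whose neuron marker list stayed between 2564 and 2788 CPM in all 6 libraries, *Spock3* fell by 1.48 ± 0.25 against MCAO contra (edgeR, adjusted p = 0.0012), a call lost with DESeq2 (adjusted p = 0.0760).

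**Figure D5:**
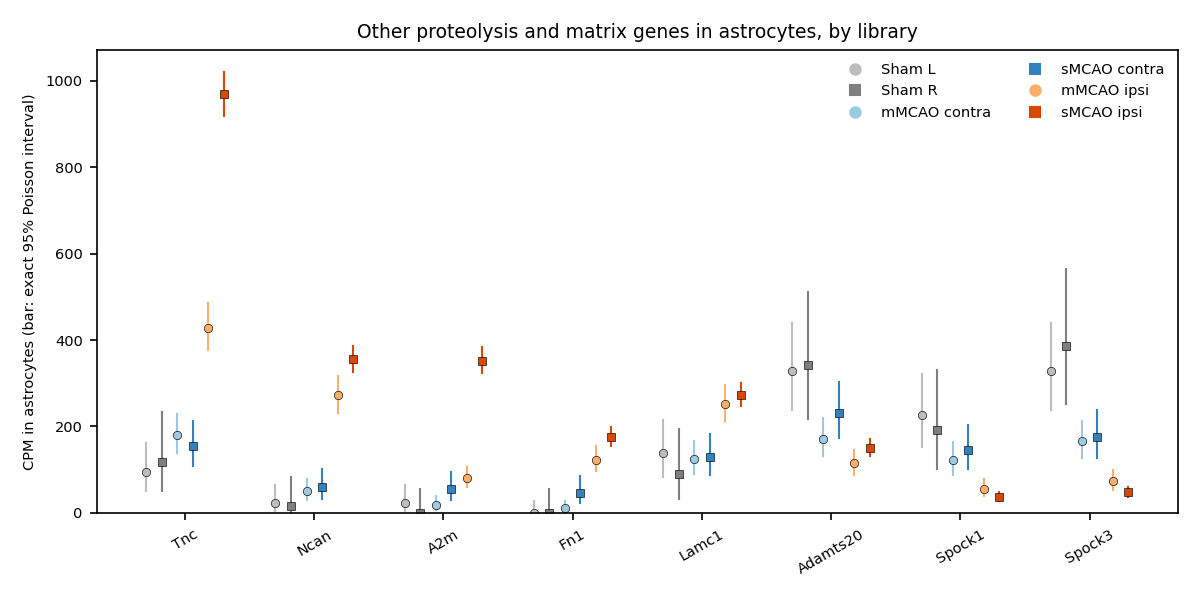
Levels (y axis, CPM with exact 95% Poisson intervals) of 8 other matrix and protease genes (x axis) in astrocytes of the 6 libraries (colour). *Tnc* and *Ncan* reached 969 and 355 CPM in sMCAO ipsi, while *Spock3* went from 328 and 386 CPM in Sham to 73.5 and 47.9 CPM in the infarcted hemispheres.

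Against Sham, 3 of 9 pairs of other inhibitors, 3 of 23 of other Adamts and 1 of 7 of other Mmps were called. Protease activators gave 1 of 11 and Adamts-like genes 0 of 7, beside 5.84% of all pairs. Against MCAO contra these lists gave, in the same order, 1, 1, 0, 0 and 2 calls, beside 4.36% of all pairs. Nothing is read from these counts, since the lists were drawn up with earlier results known. *A2m*, the broad protease trap alpha-2-macroglobulin, stood at 80.3 and 353 CPM in astrocytes of mMCAO ipsi and sMCAO ipsi against 0 to 55.7 CPM in the other 4 libraries, and rose by 2.66 ± 0.55 against MCAO contra (edgeR, adjusted p = 0.00156), or by 1.24 without sMCAO ipsi (edgeR, adjusted p = 0.0629). *Timp4*, named after its values were seen as the remaining member of the inhibitor family, fell by 2.74 ± 0.81 on the log2 scale against Sham in astrocytes (edgeR, adjusted p = 0.0231), the opposite sign to *Timp3* there. That call was lost without either Sham library, either MCAO ipsi library or mMCAO contra, at adjusted p values of 0.0544 to 0.201 in edgeR. *Adamts20* fell by 1.35 ± 0.25 against Sham in astrocytes (edgeR, adjusted p = 0.000616), from 328 and 341 CPM in Sham L and Sham R to 115 and 150 CPM in mMCAO ipsi and sMCAO ipsi, and without Sham L its adjusted p was 0.0768. In OPCs, *Mmp16*, a membrane-type Mmp of the same kind as *Mmp14*, stood at 735 and 673 CPM in Sham L and Sham R, 1156 and 932 CPM in mMCAO contra and sMCAO contra, and 1302 and 1661 CPM in mMCAO ipsi and sMCAO ipsi. It rose by 1.08 ± 0.23 against Sham (edgeR, adjusted p = 0.00949), in cells in which *Mmp14* was not detected. *Tnc* in OPCs rose by 3.30 ± 0.74 against Sham (edgeR, adjusted p = 0.0119). Neither OPC call held without Sham L (edgeR, adjusted p = 0.0646 for *Mmp16* and 0.126 for *Tnc*) or without Sham R (0.0553 and 0.0860), or with DESeq2 (adjusted p = 0.0864 and 0.0803).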

How the data were processed

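Per the labels, single nuclei were taken from frozen hemispheres and sequenced with a droplet-based 10x Genomics 5' kit, and the authors ran Cell Ranger 7.0.0 against mRatBN7.2, counting intronic reads per the study's methods. The deposited matrices hold whole-number UMI counts that were not normalized. The study's removal of free RNA and of doublets came later and is not part of them, and no doublet caller was run here. PCR duplicates are collapsed by the UMIs, and intervals cover counting error only.

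Nuclei with at least 500 UMIs, 250 to 5000 genes and at most 5% mitochondrial UMIs were kept. A nucleus entered a class with at least 2 different markers of its list detected, and at least 2 times as many as of any other list. Its neuron markers had to be under 0.5% of its UMIs, while neuron reference nuclei had at least 1% and fewer than 2 different markers of every class list. A marker was used where it was at least 5-fold higher in nuclei with neuron markers under 0.25% of UMIs. The gate's thresholds were set after the counts were seen, and the genes and lists were chosen with earlier results of these data known. Summed counts went into edgeR 4.0.16 under R 4.3.3 (TMM, filterByExpr, all 6 libraries, 3 residual degrees of freedom). Fibroblasts were not tested, with 18 nuclei in Sham R. DESeq2 1.42.0, other gates, filters and normalizations, a replicate block and leaving out each library were the alternatives, and the edgeR steps were tested on simulated counts. With 2 libraries a group, an exact two-sided permutation test of 1 value cannot go below 0.333, and none was run. The MCAO ipsi and MCAO contra libraries of a severity come from the same rats and are paired by design, although deviations of the severe pair from their group means had correlations across genes of -0.102 (vascular) to 0.0522 (astrocyte), and the block was a severity term with Sham midway between severe and moderate.

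Named in the text are the listed genes, the other family genes called (at most 8 per comparison, by smallest p) and, for each listed gene with at least 100 UMIs, the 3 genes with the highest Pearson's r. Shares of nuclei with a UMI were taken after thinning to 1000 UMIs. Python 3.11.15 was used for all other steps. *Hspg2*, in the list of matrix substrates, was not analysed here.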

Additional observations from a re-analysis of the deposited data

Results flagged for a closer look

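2 results for *Adamts4* stood out because the difference of MCAO ipsi from Sham had opposite signs in 2 classes, in every library. In oligodendrocytes MCAO ipsi stood at 104 CPM and Sham at 60.9 CPM, and in vascular cells at 93.8 CPM and 9.84 CPM. In myeloid cells the order was turned, with 4.74 CPM in MCAO ipsi and 58.8 CPM in Sham. The Sham myeloid level rests on 3 UMIs in Sham L and 1 UMI in Sham R, in 20 and 39 nuclei, and the oligodendrocyte marker list stood at 931 and 876 CPM in these nuclei against 772 and 494 CPM in those of mMCAO ipsi and sMCAO ipsi. The difference between the classes was not tested, and the part of oligodendrocyte RNA in it was not tested.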

How the results depend on the processing

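Beside 5 pairs of the 9 genes found against Sham, 3 against MCAO contra and 0 for MCAO contra against Sham, the other family genes gave 16, 13 and 0. Shares of all pairs called under each alternative are not given here, so nothing is read from changes in these counts. The counts that moved by more than 1.5 times against Sham and MCAO contra were as follows. DESeq2 gave 2 pairs against Sham, and 8 of the other family genes against MCAO contra. No filter on low counts gave 10 and 11, and 35 and 28 of the other genes. The stricter gate, which left 3 classes, gave 3 and 10 against Sham, and the looser gate, which added fibroblasts, gave 9 and 6, and 41 and 25. At least 1000 UMIs per nucleus left oligodendrocytes as the only class, with 0 in all 4 counts. With the rats' severity as replicate block (2 residual degrees of freedom), 4 of the 13 pairs were called against Sham, *Adamts9* in OPCs being lost (edgeR, adjusted p = 0.0730), and the block changed no other call named in the text. Leaving out 1 library gave 1 to 8 pairs against Sham, 1 to 7 against MCAO contra and 0 to 1 for MCAO contra against Sham, and 5 to 39, 9 to 38 and 0 to 1 of the other genes. The lowest counts against Sham came without Sham L or Sham R and the highest without mMCAO ipsi.

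Of 28 fold changes named, recomputed in 355 alternatives, none changed sign, and 36 no longer met the calling rule. *Adamts9* in astrocytes met the calling rule in all 13 alternatives run, at log2 2.13 to 2.87 against Sham and 1.47 to 1.77 against MCAO contra. *Adamts1* in oligodendrocytes was lost in 6 of 14 (log2 2.57 to 8.78) and *Timp3* in astrocytes against Sham in 3 of 13 (DESeq2 and either Sham library left out). The *Adamts9* ratio of severe to moderate infarction in vascular cells moved from 1.82 to 2.69 at 1000 UMIs per nucleus. Leaving out the nucleus with most UMIs, an alternative chosen after seeing the data, turned no ratio between subsets of a class given in the text. The causes were not tested. Depth limits the Sham classes most, where 3 UMIs equal 31.1 CPM in OPCs, 14.7 CPM in astrocytes, 80.5 CPM in fibroblasts and 44.1 CPM in myeloid cells.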
